A study of Caenorhabditis elegans with 4 samples.

Results

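The genes of the response to low oxygen and hydrogen sulfide were followed in RNA-seq of Caenorhabditis elegans, a nematode, taken whole as young adults. A list of 10 was set by name, with earlier results of these data known, and matched by WormBase gene ID. All 10 were found among the 20535 genes of the files. For this report they were split into 4 regulators (hif-1, egl-9, rhy-1 and cysl-1) and 6 targets (cysl-2, cysl-3, nhr-57, phy-2, F22B5.4 and sqrd-1). The mutant was strain VL1080, which carries the allele ww4 of mccc-1, a gene for a subunit of methylcrotonyl-CoA carboxylase in leucine breakdown, together with the integrated array wwIs24. The control was strain VL749, which carries wwIs24 alone. In both strains wwIs24 holds a green fluorescent protein reporter under the acdh-1 promoter and is listed with unc-119(ed3). All animals were fed Comamonas aquatica DA1877 on nematode growth medium and taken 70 h after hatching at 20 °C, after an arrest of 20 h in the L1, the first larval stage, that followed bleaching, with at least 200 animals in each of 2 libraries per strain. The lesion of ww4 is not given in the labels, and nothing in them says how the cultures of one strain were kept apart, so a p-value here reflects the spread between libraries alone, part of which may be technical. mccc-1 RNA stood at 100.43 and 100.33 FPKM in the mutant libraries and at 104.19 and 105.26 FPKM in the control libraries, which checks neither label.

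HIF-1 is the transcription factor through which animal cells answer low oxygen. When oxygen is present, the prolyl hydroxylase EGL-9 marks HIF-1, the VHL-1 ubiquitin ligase recognises the mark, and HIF-1 is degraded, so that the pathway is controlled mainly at the protein level. In C. elegans hydrogen sulfide feeds into the same switch: CYSL-1, a relative of cysteine synthases that acts as a signalling protein, binds EGL-9 and releases HIF-1 from it, and the membrane protein RHY-1 acts on the opposite side and restrains HIF-1. HIF-1 in turn raises RNAs for handling sulfide and cyanide, for modifying collagen and for its own restraint, egl-9 and rhy-1 among them.

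Values are FPKM, fragment counts scaled by the length of the transcript and by the depth of its library. They summed to 741399 and 770579 in the mutant libraries and to 786436 and 780720 in the control libraries. The files state no depth; from the spacing of low values, 1 FPKM of a transcript of about 1 kb stood for about 11.1 to 11.9 fragments. The tests ran on the 13091 genes that reached 1 FPKM in 2 or more libraries, on the log2(FPKM + 1) scale, and a fold change on that scale understates the change of low genes. All 10 genes passed this filter with more than 1 FPKM in each of the 4 libraries. Because the animals were taken whole, fewer cells of a type and less RNA per cell cannot be told apart.

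Most of the targets were low in both mutant libraries, and the 2 control libraries differed widely from each other. Of the targets, 3 fell in the mutant, cysl-2, F22B5.4 and nhr-57; no regulator passed the test and no gene of the 10 rose (limma, Benjamini-Hochberg adjusted p under 0.05 over all tested genes). Among all tested genes 7.30% were called lower and 1.06% higher. At an unadjusted limma p under 0.05, 6 of the 10 genes were lower and none was higher, where 13.5% of tested genes were lower, 8.16% were higher and 21.6% were either. The median log2 fold change was -1.47 over the 6 targets, -0.21 over the 4 regulators and 0.05 over all tested genes. The 2 groups are not cleanly apart: the regulators egl-9 (-1.35) and rhy-1 (-0.22) are themselves raised by HIF-1. Among the targets, cysl-3 (-0.10) was placed there for this report, so the medians depend on the split. Both mutant libraries lay below both controls for 7 of the 10 genes, against 23.2% of tested genes, and above both controls for none of them, against 28.9%. These 7 were hif-1, egl-9 and every target except cysl-3.

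**Figure D1:**
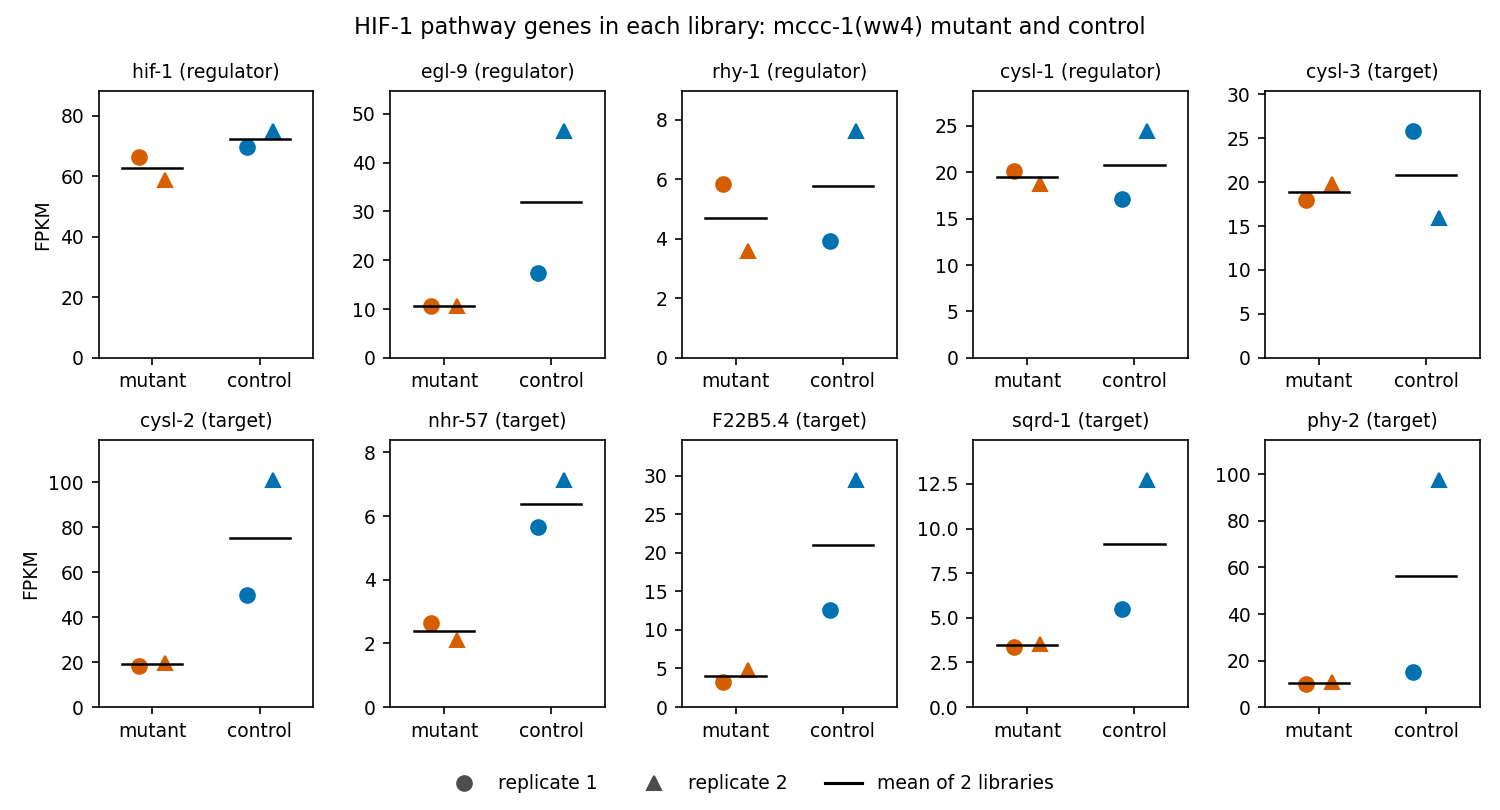
FPKM of the 4 regulators and 6 targets in each library, mutant left and control right, with circles for replicate 1, triangles for replicate 2 and a line at the mean of 2 libraries; each panel has its own linear axis from 0. The mutant libraries lie close together for egl-9, cysl-2, sqrd-1 and phy-2, while control replicate 2 (46.4, 100.74, 12.69 and 97.4 FPKM) stands far above control replicate 1 (17.44, 49.85, 5.52 and 14.99 FPKM).

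Among the regulators, hif-1 itself (WBGene00001851; chromosome V, 20780407 to 20785260, forward strand, WBcel235 annotation) varied little. It had 66.28 and 58.89 FPKM in the mutant libraries, against 69.63 and 74.85 FPKM in the control libraries. The groups did not overlap, but the gap was small and did not pass the test (log2 fold change -0.21, standard error 0.13, adjusted p = 0.43 by limma). This is the RNA, and the level of HIF-1 protein was not measured.

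egl-9 (WBGene00001178; chromosome V, 10468517 to 10476915, forward strand) encodes the oxygen-dependent hydroxylase. It had 10.54 and 10.61 FPKM in the mutant libraries, against 17.44 and 46.4 FPKM in the control libraries. The mutant libraries were nearly equal, and both lay below both controls. The means were 10.6 ± 0.0495 FPKM in the mutant and 31.9 ± 20.5 FPKM in the control (SD, n = 2 each), with a log2 fold change of -1.35 (standard error 0.41, adjusted p = 0.104 by limma), so the difference did not exceed the spread between libraries at the threshold. Without control replicate 1 it was called lower (-2.03, limma adjusted p = 0.00207), and without control replicate 2 it was not (-0.67, limma adjusted p = 0.274).

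rhy-1 (WBGene00012324; chromosome II, 9161379 to 9163448, forward strand), for the acyltransferase-like membrane protein that restrains HIF-1, had 5.84 and 3.59 FPKM in the mutant libraries, against 3.92 and 7.62 FPKM in the control libraries. The groups overlapped (log2 fold change -0.22, standard error 0.35, adjusted p = 0.786 by limma), and the sign turned to 0.19 without control replicate 2, to 0.07 without mutant replicate 2 and to 0.00198 after quantile normalization. Of its annotated span, the last 82 bases are shared with W07A12.8 on the opposite strand, and whether the libraries kept strand is not given.

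cysl-1 (WBGene00007653; chromosome X, 9952579 to 9954533, reverse strand), the sulfide-sensing partner of EGL-9, had 20.13 and 18.76 FPKM in the mutant libraries, against 17.06 and 24.4 FPKM in the control libraries. Again the groups overlapped (log2 fold change -0.07, standard error 0.20, adjusted p = 0.894 by limma), with 0.18 without control replicate 2.

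Among the targets, cysl-2 (WBGene00010759; chromosome II, 14492874 to 14494451, reverse strand) encodes a cyanoalanine synthase that detoxifies cyanide and takes part in sulfide handling. It had 18.36 and 19.77 FPKM in the mutant libraries, against 49.85 and 100.74 FPKM in the control libraries. Both mutants were low and alike, and the controls differed 2.02-fold from each other, the lower one standing at 2.61 times the mutant mean. The mean was 3.95-fold lower in the mutant, at 19.1 ± 0.997 FPKM, against 75.3 ± 36.0 FPKM in the control (SD, n = 2 each; log2 fold change -1.84, standard error 0.30, adjusted p = 0.0177 by limma). It was called without either control, with log2 fold changes of -1.34 without control replicate 2 and -2.34 without control replicate 1. It missed the threshold without mutant replicate 1 (-1.79). With the filter at 0.1 FPKM, or with none beyond a value above 0, the call was lost as well (limma adjusted p = 0.0955 and 0.131).

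Its relative cysl-3 (WBGene00019962; chromosome V, 3774536 to 3776136, reverse strand) is another gene of the cysteine synthase family and is counted with the targets here. It had 17.94 and 19.73 FPKM in the mutant libraries, against 25.78 and 15.91 FPKM in the control libraries. The groups overlapped, control replicate 1 was the highest library and control replicate 2 the lowest (log2 fold change -0.10, standard error 0.24, adjusted p = 0.863 by limma; 0.23 without control replicate 1). In the mutant libraries cysl-1, cysl-2 and cysl-3 stood at much the same level per length, with means of 19.4, 19.1 and 18.8 FPKM, whereas in the controls cysl-2 had 75.3 FPKM and cysl-1 and cysl-3 had 20.7 and 20.8 FPKM. A further relative, cysl-4, was near 1 FPKM in both strains, at 1.28 and 1.29 FPKM in the mutant and at 1.97 and 1.88 FPKM in the control libraries. Genes of a family can share reads, so the values of these relatives are less certain.

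F22B5.4 (WBGene00009042; chromosome II, 8449710 to 8452742, forward strand), a little-studied gene known as a HIF-1-dependent hypoxia marker, had 3.2 and 4.86 FPKM in the mutant libraries, against 12.6 and 29.36 FPKM in the control libraries. Both mutants lay well below the lower control. The mean was 5.21-fold lower, at 4.03 ± 1.17 FPKM in the mutant and 21.0 ± 11.9 FPKM in the control (SD, n = 2 each; log2 fold change -2.03, standard error 0.39, adjusted p = 0.0285 by limma). The log2 fold change was -1.45 without control replicate 2 and -1.79 without mutant replicate 1, and the call was lost in both fits. It was kept without control replicate 1 (-2.61) and without mutant replicate 2 (-2.27). The call was also lost after quantile normalization (limma adjusted p = 0.0519). With the filter at 0.1 FPKM, or with none beyond a value above 0, it was lost too (limma adjusted p = 0.114 and 0.152).

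nhr-57 (WBGene00003647; chromosome V, 4131889 to 4135102, forward strand), a nuclear hormone receptor gene widely used as a reporter of HIF-1 activity, had 2.64 and 2.11 FPKM in the mutant libraries, against 5.65 and 7.12 FPKM in the control libraries. By the spacing of low values and its transcript of 1559 bases, that is about 38 to 46 fragments in the mutant and about 104 to 131 in the control. The controls differed 1.26-fold from each other here. The mean was 2.69-fold lower in the mutant (log2 fold change -1.13, standard error 0.25, adjusted p = 0.0418 by limma). This call sat near the threshold. It was lost when any library other than control replicate 1 was left out, with log2 fold changes of -1.24 to -0.98. With the filter at 5 FPKM, at 0.1 FPKM or with none beyond a value above 0 it was also lost (limma adjusted p = 0.0649, 0.109 and 0.144). Quantile normalization lost it too (limma adjusted p = 0.0823).

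phy-2 (WBGene00004025; chromosome IV, 12211097 to 12215987, reverse strand) encodes a catalytic subunit of the collagen prolyl 4-hydroxylase that modifies cuticle collagens. It had 9.77 and 10.84 FPKM in the mutant libraries, against 14.99 and 97.4 FPKM in the control libraries. Control replicate 2 stood apart, at 6.50 times control replicate 1, which in turn was 1.45 times the mutant mean. The mean was 5.45-fold lower in the mutant, yet the gene was not called (log2 fold change -1.81, standard error 0.74, adjusted p = 0.217 by limma). The log2 fold change was -0.50 without control replicate 2 (limma adjusted p = 0.506) and -3.12 without control replicate 1 (limma adjusted p = 0.000216).

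sqrd-1 (WBGene00008538; chromosome IV, 14219871 to 14224440, forward strand), for the mitochondrial sulfide:quinone oxidoreductase that starts sulfide breakdown, had 3.37 and 3.54 FPKM in the mutant libraries, against 5.52 and 12.69 FPKM in the control libraries. The order of the libraries was that of egl-9, with alike mutants, control replicate 1 somewhat higher and control replicate 2 highest. It was not called (log2 fold change -1.08, standard error 0.37, adjusted p = 0.143 by limma), with -0.55 without control replicate 2 and -1.62 without control replicate 1, where it passed (limma adjusted p = 0.0104).

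By level per length, hif-1 was the most abundant of the 10 RNAs in the mutant, with a mean of 62.6 FPKM. It was followed there by cysl-1, cysl-2 and cysl-3 between 18.8 and 19.4 FPKM, by egl-9 and phy-2 at 10.6 and 10.3 FPKM, and by rhy-1, F22B5.4, sqrd-1 and nhr-57 at 4.72, 4.03, 3.46 and 2.38 FPKM. In the control the means of cysl-2, hif-1 and phy-2 were highest, at 75.3, 72.2 and 56.2 FPKM, but the SD of 36.0 FPKM for cysl-2 and of 58.3 FPKM for phy-2 leaves the order of these 3 undecided. By its mean of 31.9 FPKM egl-9 came next, followed by F22B5.4, cysl-3 and cysl-1 between 20.7 and 21.0 FPKM. Last by mean were sqrd-1, nhr-57 and rhy-1 at 9.11, 6.39 and 5.77 FPKM. The places of phy-2 and egl-9 lean on control replicate 2. In control replicate 1, phy-2 (14.99 FPKM) lay below cysl-3 (25.78 FPKM), egl-9 (17.44 FPKM) and cysl-1 (17.06 FPKM). On the log2(FPKM + 1) scale the mean level of the targets minus that of the regulators was -1.19 and -0.87 in the mutant libraries, against -0.27 and -0.05 in the control libraries.

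**Figure D2:**
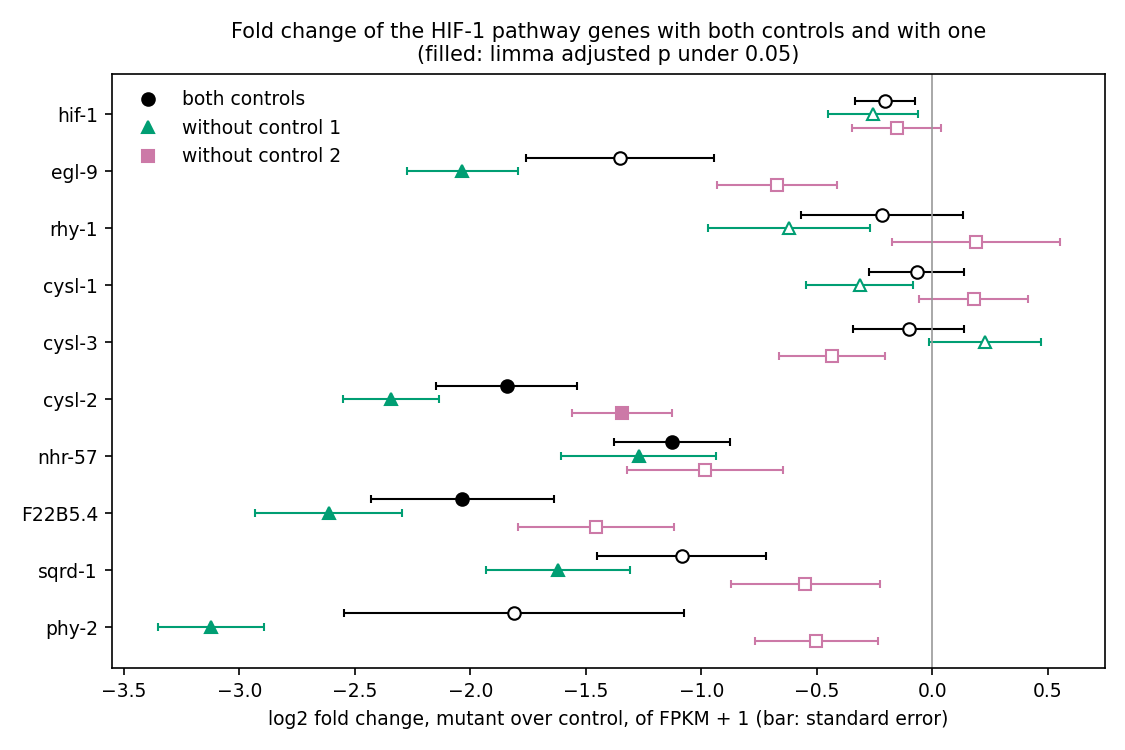
Log2 fold change of FPKM + 1, mutant over control, of each gene with its standard error, fitted with both controls (black), without control replicate 1 (green) and without control replicate 2 (pink); filled symbols passed at a limma adjusted p under 0.05. Leaving out control replicate 2 keeps 1 filled symbol, cysl-2 at -1.34, and leaving out control replicate 1 gives 6, with phy-2 at -3.12.

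The count of lower genes among the 10 therefore hung on single libraries. It was 1 without control replicate 2, where 3.08% of tested genes were called lower, and 6 without control replicate 1, where 8.58% were; in each of these fits the lone control is assumed to vary like the mutants. It was 0 without mutant replicate 1, where 2.79% of tested genes were called lower, and 2 without mutant replicate 2, where 5.02% were. With the filter set at 0.1 FPKM the count was also 0, and so it was with none beyond a value above 0; only 1 gene of the whole table was then called lower.

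The controls also differed from each other among the 10 genes, and this difference shares its libraries with that between the strains. It was already known when the list was set, so the shares and ranks below describe the 10 genes and test nothing. Control replicate 2 was the highest library for 9 of the 10 genes, all except cysl-3, against 31.6% of tested genes. It was at least 2-fold above control replicate 1 for 5 of them, cysl-2, egl-9, sqrd-1, F22B5.4 and phy-2, at 2.02, 2.66, 2.30, 2.33 and 6.50 times. Among all tested genes 4.09% were that far up and 2.77% were at least 2-fold higher in control replicate 1. On the log2(FPKM + 1) scale, phy-2 ranked 5 of 13091 tested genes for the difference between the controls, egl-9 ranked 73 and F22B5.4 ranked 129. hif-1 differed by 0.10, near the median of 0.07 over all tested genes, and nhr-57 by 0.29, at rank 3073.

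None of the 10 genes differed 2-fold between the mutant libraries in either direction, where 7.46% of tested genes did. Among as few as 10 genes a count of none is close to that share and does not set them apart. The controls were that far apart in 6.86% of tested genes, up or down. Between the mutant libraries the widest differences were 1.52 times for F22B5.4, higher in replicate 2, and 0.615 times for rhy-1, lower in replicate 2. Control replicate 1 alone was above both mutant libraries for 8 of the 10 genes, all except rhy-1 and cysl-1, against 30.1% of tested genes. It was at least 1.5-fold above the mutant mean for 5, against 14.8%. These were F22B5.4, cysl-2, nhr-57, egl-9 and sqrd-1, at 1.60 to 3.13 times.

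**Figure D3:**
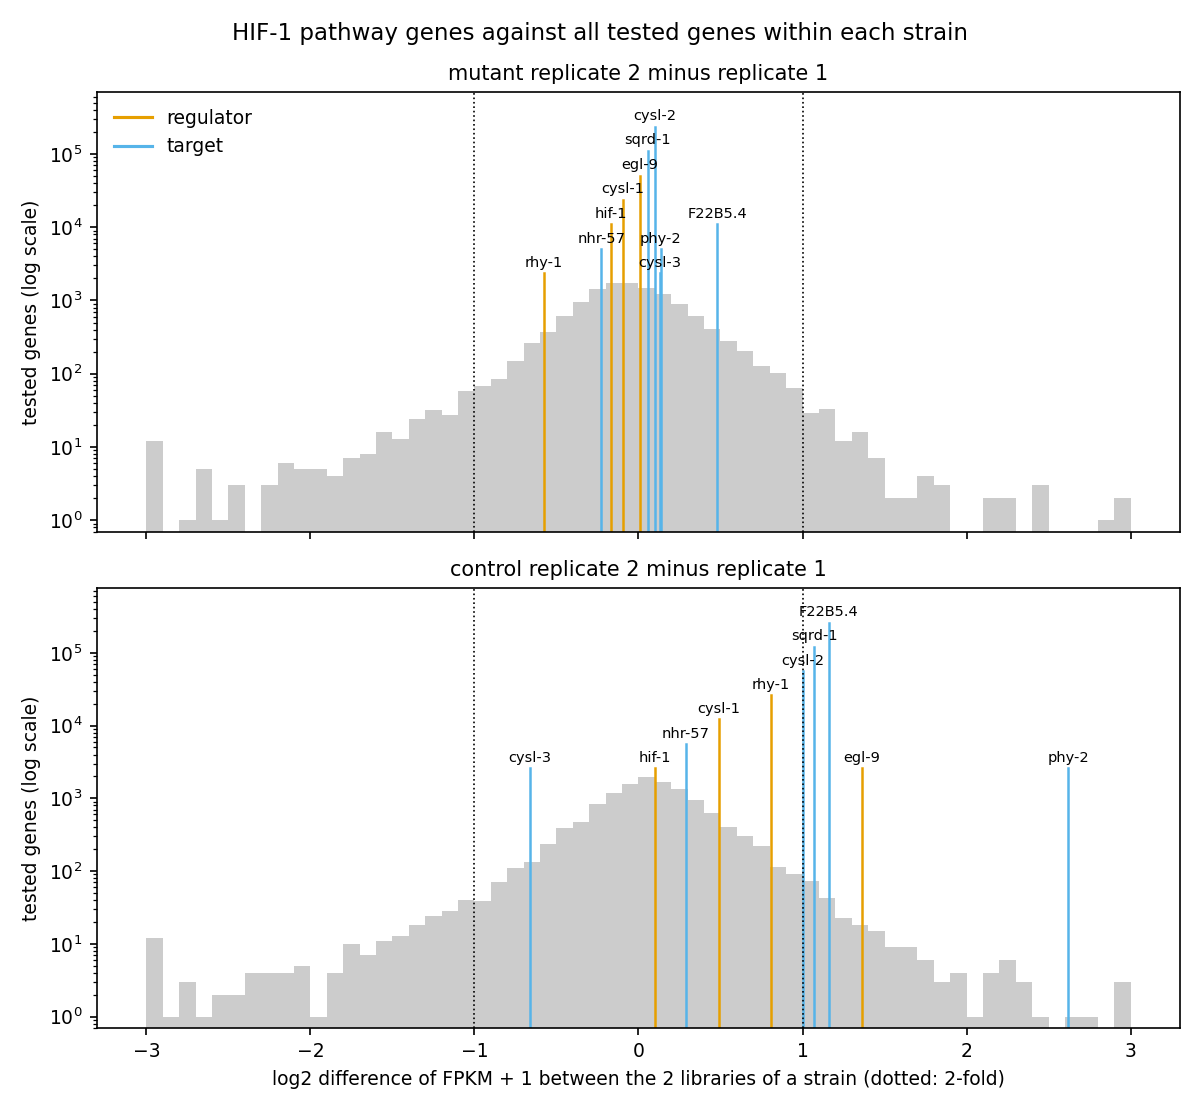
Histograms of the log2 difference of FPKM + 1 between the 2 libraries of a strain over 13091 tested genes (gray, log axis of gene counts, values beyond 3 placed in the outer bins), mutant above and control below, with a line for each of the 10 genes whose height only makes room for the label. All 10 lie inside the dotted 2-fold limits in the mutant, while in the control 5 lie beyond the upper limit, phy-2 farthest at 2.62.

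Markers of tissues that whole animals hold were set beside these values. All 8 sperm markers fell in the mutant (limma), with summed levels of 326 and 456 FPKM in the mutant libraries, against 1420.45 and 1419.33 FPKM in the control libraries. The summed sperm markers separated the strains and were nearly equal in the 2 controls. Single sperm markers in control replicate 2 ran from 0.908 (ssp-10) to 1.31 times (htas-1) their level in control replicate 1. Of 8 oocyte markers, spn-4 and mex-6 rose (limma) and all 8 were above both controls, with summed levels of 2486 and 2269 FPKM in the mutant and 1802 and 1432 FPKM in the control libraries. Of 8 embryo markers, 6 were under 1 FPKM in all libraries, hlh-27 was listed at 0 throughout, and the list summed to 5.65 and 3.41 FPKM in the mutant and to 2.47 and 2.80 FPKM in the control libraries. None of the tested markers of intestine (6), hypodermis (4), body wall muscle (4), pharynx (3) or neurons (6) was called by limma, and at an unadjusted p under 0.05 there was 1 each in intestine and hypodermis. The larval cuticle genes dpy-7 and rol-6 of the hypodermis list were under 1 FPKM in every library, and so were nhr-25 of the same list and ceh-22 of the pharynx list. Summed intestine markers ran from 11798 to 12681 FPKM in the mutant and from 11158 to 12336 FPKM in the control libraries, and hypodermis markers from 6259 to 7104 FPKM in the mutant and from 6952 to 7741 FPKM in the control libraries. Such sums rest mostly on abundant genes, and single markers differed. Of the intestine list only elt-2 did not overlap, with 9.55 and 11.13 FPKM in the mutant, against 6.38 and 3.94 FPKM in the control libraries. In the hypodermis list both mutants lay below both controls for elt-3 and col-140 and above them for col-10. Pharynx markers summed to 76.5 and 103 FPKM in the mutant and to 95.4 and 131 FPKM in the control libraries. Muscle markers summed to 1981 and 2436 FPKM in the mutant and to 2316 and 2579 FPKM in the control libraries, and neuron markers to 263 and 262 FPKM in the mutant and to 237 and 282 FPKM in the control libraries. The part of germ cells and of tissue makeup in the differences among the 10 genes was not tested.

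The machinery around HIF-1 did not pass the test. None of 7 genes was called by limma, nor had any an unadjusted p under 0.05, among those for the HIF-1 partner AHA-1, for VHL-1 and the rest of its ubiquitin ligase (cul-2, elc-1, elb-1 and rbx-1), or for swan-1, which encodes a binding partner of EGL-9. vhl-1 had 9.53 and 6.14 FPKM in the mutant libraries, against 7.37 and 4.84 FPKM in the control libraries (log2 fold change 0.31, standard error 0.30, adjusted p = 0.618 by limma). aha-1 had 9.75 and 8.82 FPKM in the mutant libraries, against 8.53 and 9.0 FPKM in the control libraries (0.07, standard error 0.20, adjusted p = 0.88 by limma). All 7 log2 fold changes lay between 0.07 and 0.31, with a median of 0.16. Both mutants lay above both controls for 2 of the 7, cul-2 and rbx-1, against 28.9% of tested genes. Among all tested genes 7.30% were called lower and 1.06% higher, so no call among 7 genes is close to the share over all genes. An unadjusted limma p under 0.05 was found for 21.6% of tested genes.

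Other genes reported to respond to HIF-1 or hydrogen sulfide differed in size. Of 11 listed, 10 matched the files, 9 were tested and none was called by limma. At an unadjusted p under 0.05 there were 2, close to the 21.6% of all tested genes. The 9 log2 fold changes were all negative, from -1.89 to -0.05, with a median of -0.20. The list was not sorted by the direction of the reported responses, so a shared sign does not by itself mark a shared response. dct-1, the worm relative of the BNIP3 mitophagy receptor, had 7.25 and 8.51 FPKM in the mutant libraries, against 14.0 and 38.07 FPKM in the control libraries (-1.45, standard error 0.42, adjusted p = 0.0933 by limma). Its libraries stood in the order seen for egl-9 and sqrd-1, and it was called without control replicate 1 (-2.14, limma adjusted p = 0.00231) but not without control replicate 2 (-0.76, limma adjusted p = 0.255). fmo-2, a flavin-containing monooxygenase gene induced by HIF-1, was close to the limit of detection in the mutant, at 0.05 and 0.15 FPKM, against 1.48 and 5.72 FPKM in the control libraries (-1.89, standard error 0.47, adjusted p = 0.059 by limma). It was above 1 FPKM only in the controls, so it passed the filter through them alone. It was called with a pseudocount of 0.1 and with robust empirical Bayes (limma adjusted p = 0.0368 and 0.0482). With replicate number as a block it was called too (limma adjusted p = 0.00096). The genes ethe-1 and suox-1, for later enzymes of sulfide oxidation, differed less, and so did cdo-1. ethe-1, for a persulfide dioxygenase, had 10.34 and 6.56 FPKM in the mutant and 10.48 and 10.39 FPKM in the control libraries. suox-1, for sulfite oxidase, had 18.01 and 18.82 FPKM in the mutant and 19.34 and 18.81 FPKM in the control libraries. cdo-1, for cysteine dioxygenase, had 32.38 and 20.45 FPKM in the mutant and 24.58 and 28.81 FPKM in the control libraries, with overlapping groups.

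Of 13 genes of cysteine and hydrogen sulfide production, 12 matched and 11 were tested; 2 fell and none rose, with a median log2 fold change of 0.04. The abundant enzymes of the pathway did not pass: cbs-1, for cystathionine beta-synthase, had 32.14 and 29.77 FPKM in the mutant and 26.48 and 27.81 FPKM in the control libraries, and cth-2, for cystathionine gamma-lyase, had 210.13 and 218.2 FPKM in the mutant and 230.51 and 209.24 FPKM in the control libraries. Both called genes belong to the mercaptopyruvate sulfurtransferase family. mpst-4 had 0.79 and 1.46 FPKM in the mutant libraries, against 6.28 and 11.53 FPKM in the control libraries (-2.19, standard error 0.34, adjusted p = 0.0155 by limma). mpst-6 had 4.48 and 7.41 FPKM in the mutant libraries, against 15.89 and 15.15 FPKM in the control libraries (-1.28, standard error 0.26, adjusted p = 0.0307 by limma). The sperm markers above moved in the same direction between the strains, and their part in these 2 calls was not tested. Without mutant replicate 1 the log2 fold changes were -1.96 for mpst-4 and -0.97 for mpst-6, and both calls were lost. That of mpst-6 was also lost without control replicate 2 (-1.31) and after quantile normalization (limma adjusted p = 0.0607). With the filter at 0.1 FPKM both calls were lost (limma adjusted p = 0.0842 for mpst-4 and 0.104 for mpst-6). The same held with none beyond a value above 0 (limma adjusted p = 0.117 and 0.138). cbs-2, a low relative of cbs-1, had 0.59 and 0.91 FPKM in the mutant and 1.87 and 3.21 FPKM in the control libraries and was not called (adjusted p = 0.104 by limma); it too passed the filter through the controls alone.

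The 3 other collagen prolyl 4-hydroxylase genes tested all lay within 2-fold between the controls. Only 6.86% of all tested genes were at least 2-fold apart there, so this does not set the 3 genes apart. dpy-18, the partner catalytic subunit of PHY-2 in the cuticle enzyme, had 15.29 and 27.97 FPKM in the mutant libraries, against 22.63 and 44.74 FPKM in the control libraries (log2 fold change -0.60, standard error 0.37, adjusted p = 0.43 by limma). Its groups overlapped, and replicate 2 was about as far above replicate 1 in the mutant as in the control, at 1.83 and 1.98 times. pdi-2, for the disulfide isomerase subunit of the same enzyme, had 356.13 and 484.2 FPKM in the mutant and 432.35 and 319.82 FPKM in the control libraries, lowest in control replicate 2. phy-3, for a further catalytic subunit, had 3.18 and 4.65 FPKM in the mutant libraries, against 6.67 and 6.2 FPKM in the control libraries. Both mutants lay below both controls, and the gene was not called (log2 fold change -0.61, standard error 0.25, adjusted p = 0.224 by limma).

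Glycolysis, which hypoxia raises in many animals, held no gene called by limma among 18 tested (3 at an unadjusted p under 0.05, a share not above the 21.6% of all tested genes), with a median log2 fold change of 0.04. The 2 extremes were pfk-1.2, a phosphofructokinase gene with 1.17 and 2.52 FPKM in the mutant and 5.58 and 5.85 FPKM in the control libraries (-1.28, standard error 0.30, adjusted p = 0.0515 by limma), and gpd-1, a glyceraldehyde-3-phosphate dehydrogenase gene with 204.87 and 247.81 FPKM in the mutant and 174.81 and 150.57 FPKM in the control libraries. pfk-1.2 was called with robust empirical Bayes and with replicate number as a block (limma adjusted p = 0.0359 and 0.00479). It was also called without mutant replicate 2, where its log2 fold change was -1.63. None of the 18 was 2-fold apart between the controls, where 6.86% of tested genes were.

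**Figure D4:**
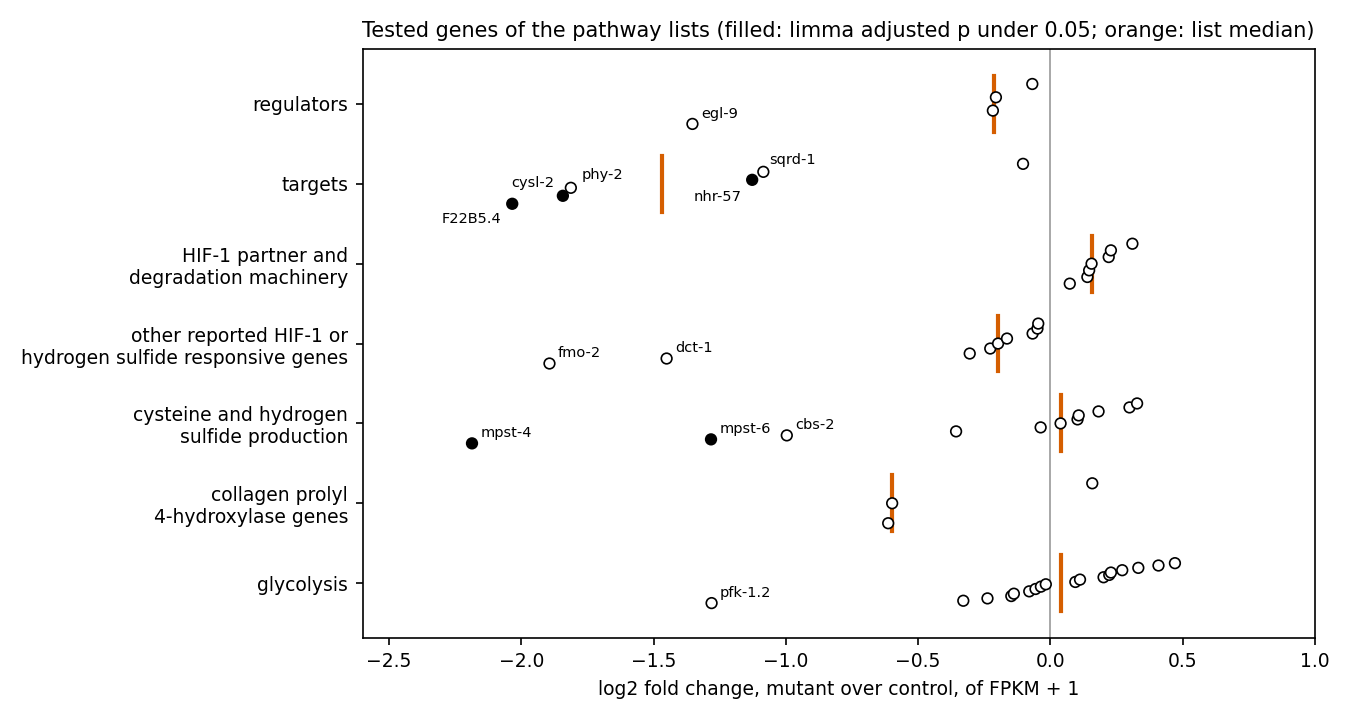
Log2 fold change of FPKM + 1, mutant over control, of each tested gene of the regulators, the targets and 5 further lists, with filled points at a limma adjusted p under 0.05 and orange bars at list medians. The targets have a median of -1.47, while the medians of the HIF-1 machinery, of cysteine and sulfide production and of glycolysis are 0.16, 0.04 and 0.04.

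The profile of the targets over the 4 libraries, averaged after centring each gene on its own log2 mean, was -0.72 and -0.61 in the mutant and 0.21 and 1.12 in the control libraries. Of the 10 genes themselves, sqrd-1 and egl-9 lay nearest to it, with root mean square differences of 0.138 and 0.163, and cysl-3 farthest, with 0.83. The targets are part of that average and the regulators are not, so their differences from it are not like for like. Outside the 10 genes, the 5 tested genes with the nearest profiles were mltn-1, Y69E1A.4, M110.7, F54H12.8 and WBGene00019169, with root mean square differences of 0.0325 to 0.0696 on the log2(FPKM + 1) scale over 4 libraries. mltn-1 had 1.4 and 1.53 FPKM in the mutant libraries, against 3.35 and 7.17 FPKM in the control libraries. All 5 were low, with no value above 7.17 FPKM, and were chosen for this likeness, so their own fold changes are not evidence for it.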

How the data were processed

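RNA of whole animals was measured in 4 libraries, 2 of each strain, grouped by sample title. The files, 1 per library, give the authors' FPKM of each gene, per the file headers. Bowtie2 and RSEM were used, per the submitters' processing notes; for versions, genome build, annotation and strandedness, nothing was given in the sources used here. RSEM assigns ambiguous reads by a model, so families and overlapping genes are less certain. Symbols were matched by WormBase ID; coordinates are those of the WBcel235 annotation (Ensembl), which may not be the authors' build.

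The 13091 genes that reached 1 FPKM in 2 or more libraries entered limma 3.58.1 (R 4.3.3) on the log2(FPKM + 1) scale (group only, mean-variance trend, 2 residual and 4.65 prior degrees of freedom), mutant minus control, Benjamini-Hochberg adjusted over all of them at 0.05. An exact permutation test of 2 against 2 libraries cannot go below p = 0.333. The fit was tested on simulated data. Fragments per FPKM were estimated from the step between low values of genes with 1 transcript of 950 to 1050 nt. The 10 genes, the 13 further lists and the filter were chosen with earlier results of these data known. The text names all 10 genes, genes of those lists, and the 5 nearest profiles. The 12 alternatives changed the pseudocount, filter, normalization, variance model, replicate block or libraries. No sequence was analysed here.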

Additional observations from a re-analysis of the deposited data

How the results depend on the processing

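The median log2 fold change of the targets stayed below 0 under the 7 alternatives that can move it, and the other 5, which left it equal, do not bear on its direction; the calls changed. Leaving out 1 library in turn gave 37 to 244 tested genes called higher and 356 to 1080 called lower, 0 to 6 of the 10 genes called lower, a median log2 fold change of -1.98 to -0.77 for the targets and of -0.47 to 0.01 for the regulators. With no filter beyond a value above 0, and with a minimum of 0.1 FPKM, 3 genes were called higher and 1 lower, and 0 of the 10 genes were called; more low genes then enter the variance trend. Quantile normalization called 603 genes lower and 1 of the 10, cysl-2, and moved the median of all tested genes to 0.09, against 0.05. Of the 10 genes, 3 that were not called changed sign: rhy-1 (-0.62 to 0.19 over the fits with 1 library left out, and 0.00198 after quantile normalization), cysl-1 (-0.31 to 0.18) and cysl-3 (-0.43 to 0.23). The labels do not say that replicate numbers mark a batch or a shared culture, and same-numbered libraries deviated together only weakly (r = 0.176 across genes). With the replicate block 352 genes were called higher and 1451 lower, and 6 of the 10 genes were lower, egl-9, phy-2 and sqrd-1 among them. Of the other lists, dct-1, cbs-2 and dpy-18 were called lower in that fit (limma adjusted p = 0.00126, 0.0273 and 0.0487), and so were fmo-2 and pfk-1.2. For 20 named genes, 190 of 234 refitted values kept both direction and side of the threshold, 23 lost a call, 16 gained one and 5 changed sign. Most of the 20 were not called in the main fit, and only a called gene can lose its call, so the 190 do not measure how stable the calls were. Depth limits genes of few fragments, such as nhr-57, rhy-1 and fmo-2. No flag for a library far from its group could be set with 2 libraries per group.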

Other observations

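Genes of iron handling, which HIF-1 is known to regulate in C. elegans, were on the list of other responsive genes, and none was called by limma. The ferritin gene ftn-1 had 3.91 and 3.05 FPKM in the mutant libraries, against 2.08 and 7.1 FPKM in the control libraries. It was 3.41 times as high in control replicate 2 as in control replicate 1, so the control libraries enclosed both mutants. The abundant ferritin gene ftn-2 had 367.34 and 412.05 FPKM in the mutant libraries, against 450.61 and 441.86 FPKM in the control libraries. The iron importer gene smf-3 had 1.62 and 1.55 FPKM in the mutant libraries, against 1.66 and 2.44 FPKM in the control libraries, with control replicate 2 again the highest.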
